A study of Mus musculus with 6 samples.

Results

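MHC class I molecules carry peptides from inside a cell to its surface, and the 10 genes described here encode most of the machinery that builds them. They are the classical heavy chains H2-K1 and H2-D1, the nonclassical heavy chains H2-Q6, H2-Q7 and H2-T23, the shared light chain B2m, the peptide transporter subunits Tap1 and Tap2, the loading chaperone tapasin (Tapbp) and the class I transactivator Nlrc5. The genes were chosen by symbol and function, and all 10 were found among the 28692 gene rows of the deposited tables. They were followed in sorted live CD45-positive cells of C57BL/6 mice before and during experimental autoimmune encephalomyelitis (EAE), a mouse disease in which induced autoimmunity inflames the central nervous system. The miR-155KO mice (KO) lack miR-155, a microRNA that leukocytes make on activation, and wild-type (WT) mice were the controls. Each genotype was sampled on day 0, in unimmunized mice, and on days 13 and 21 after induction. There were 5 mice and 1 droplet library per genotype and day. Day 0 therefore differs from the later days in immunization as well. The 6 groups were therefore KO day 0, KO day 13, KO day 21, WT day 0, WT day 13 and WT day 21. Brain is the labelled tissue, although the preparation protocol speaks of spinal cord as well. The sources used here do not name the knockout allele, the age of the mice or the inducing antigen.

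In the class I pathway, peptides made by the proteasome are pumped into the endoplasmic reticulum by the Tap1-Tap2 transporter. There tapasin holds heavy chains paired with B2m beside the transporter until a peptide binds. H2-K and H2-D molecules present peptides to CD8 T cells. H2-T23 encodes Qa-1, which binds the NKG2A receptor of natural killer (NK) and T cells, and H2-Q6 and H2-Q7 encode Qa-2 molecules. Interferons raise most of these genes, through IRF1 and Nlrc5 among others. Resting microglia, the resident macrophages of the brain, are known for low class I expression.

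Of the 10 genes, 8 lie on chromosome 17, B2m lies on chromosome 2 and Nlrc5 on chromosome 8 (GENCODE M21 annotation of GRCm38, the build mm10 of the files). H2-K1 spans 33996017 to 34000347 on the minus strand, H2-D1 spans 35262730 to 35267499, H2-Q6 spans 35424850 to 35430055 and H2-Q7 spans 35439155 to 35443773, these 3 on the plus strand of chromosome 17. H2-T23 spans 36029773 to 36032855 on the minus strand. Tapbp spans 33915899 to 33929292, Tap1 spans 34187553 to 34197225 and Tap2 spans 34203527 to 34216321, all on the plus strand of chromosome 17. B2m spans 122147686 to 122153083 on chromosome 2, and Nlrc5 spans 94434356 to 94527272 on chromosome 8, both on the plus strand. All 10 are annotated as protein coding.

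Heavy chain genes resemble each other, so reads could be shared between them. In windows of 90 bases over the last 500 bases of the longest coding transcript, where 3' reads fall, 10.9% of the windows of H2-Q6 and 13.4% of those of H2-T23 also occurred in transcripts of another gene, among them H2-Q4 for H2-Q6. The other 8 members shared none of their windows, so H2-K1, H2-D1 and H2-Q7 can be told apart there. Tap1 overlaps the opposite-strand gene Psmb9 and B2m overlaps Patl2, also on the opposite strand. Tap2, H2-T23 and Tapbp have antisense partners, and the span of Tapbp overlaps that of Zbtb22 on its own strand. The sources used here do not say how the counting treated strand.

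The promoters are shown for the elements they hold. Those printed all belong to members that rose in microglia on day 13. Tap2, the member that did not, had no window, so the elements could not be set against the changes. RefSeq windows from 250 bases before to 50 bases after the start site (GRCm38.p6) were held for 8 of the 10 genes, all except Tap2 and Nlrc5. Capitals mark matches on either strand to the interferon-regulatory-factor element GAANNGAAA and the interferon-stimulated element (the same letters with a further A before the NN). They also mark exact matches to an NF-kB-type palindrome (GGGG, then ATT, then CCCC), to CCAAT and to TGACGC. No matches overlapped in the windows printed.
H2-K1 (chr17:34000284-34000583, minus strand): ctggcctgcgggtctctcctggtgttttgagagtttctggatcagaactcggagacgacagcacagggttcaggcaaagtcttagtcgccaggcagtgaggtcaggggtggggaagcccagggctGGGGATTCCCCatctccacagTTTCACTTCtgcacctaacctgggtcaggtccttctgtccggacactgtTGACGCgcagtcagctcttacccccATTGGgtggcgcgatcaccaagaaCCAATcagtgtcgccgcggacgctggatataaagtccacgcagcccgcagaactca
H2-Q7 (chr17:35438905-35439204, plus strand): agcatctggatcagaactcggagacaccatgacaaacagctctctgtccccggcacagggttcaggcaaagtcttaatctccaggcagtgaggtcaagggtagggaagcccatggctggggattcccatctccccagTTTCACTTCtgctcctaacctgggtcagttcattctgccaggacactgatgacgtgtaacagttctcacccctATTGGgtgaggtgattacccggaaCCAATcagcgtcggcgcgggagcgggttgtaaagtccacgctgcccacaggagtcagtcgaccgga
H2-T23 (chr17:36032652-36032951, minus strand): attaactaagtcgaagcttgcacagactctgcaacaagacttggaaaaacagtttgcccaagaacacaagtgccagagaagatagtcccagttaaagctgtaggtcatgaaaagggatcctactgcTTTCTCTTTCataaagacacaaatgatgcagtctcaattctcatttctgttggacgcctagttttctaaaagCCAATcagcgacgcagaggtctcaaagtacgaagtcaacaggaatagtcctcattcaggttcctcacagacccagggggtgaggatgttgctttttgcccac
B2m (chr2:122147437-122147736, plus strand): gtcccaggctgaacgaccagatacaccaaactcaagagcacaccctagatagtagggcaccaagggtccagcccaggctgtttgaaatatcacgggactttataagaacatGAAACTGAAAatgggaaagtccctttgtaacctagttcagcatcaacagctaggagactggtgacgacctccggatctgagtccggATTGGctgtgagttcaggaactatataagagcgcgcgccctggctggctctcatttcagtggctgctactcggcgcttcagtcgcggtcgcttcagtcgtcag
Tap1 (chr17:34187306-34187605, plus strand): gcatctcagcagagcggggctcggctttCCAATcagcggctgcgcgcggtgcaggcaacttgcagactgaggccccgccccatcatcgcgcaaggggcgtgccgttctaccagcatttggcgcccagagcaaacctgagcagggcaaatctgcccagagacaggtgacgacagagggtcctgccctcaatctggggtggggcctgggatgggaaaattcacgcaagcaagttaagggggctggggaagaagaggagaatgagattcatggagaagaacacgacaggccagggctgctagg
GAANNGAAA stood in the windows of H2-K1, H2-D1, H2-Q6 and H2-Q7, and in 7.52% of all 32851 windows of the table. The interferon-stimulated element stood in those of H2-T23 and B2m, and in 3.44% of all windows. The NF-kB-type palindrome stood in the first listed windows of H2-K1, H2-D1 and H2-Q6, and in 10 windows of the whole table (0.0304%). The window of H2-Q7 held the same letters with a shorter run of C, so it was neither marked nor counted. Looser forms of the element were not searched for. CCAAT was found in all 8 windows, against 37.4% of all windows, and TGACGC in those of H2-K1 and H2-D1, against 7.40%. The windows of Tap1 and Tapbp held neither interferon-type element in these letters.

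The files held 20030 cell barcodes and 93001478 unique molecular identifiers (UMIs, counted molecules), 6321841 to 24243660 per library. Mir155hg, the host gene of the deleted microRNA, had 0, 0 and 1 UMIs in the KO libraries of days 0, 13 and 21, against 2, 45 and 59 in the WT libraries. Cells were sorted into classes by detected marker genes, and 14836 of 20007 cells fell into 1 class, while 4778 carried markers of several classes and were left out. The mixed share was 6.32% to 31.8% per library, and 207 barcodes occurred in more than 1 library. Classes are named from these markers alone. UMIs were summed per library and class and are given as CPM, counts scaled to a common class total. Each UMI is 1 molecule read at its 3' end, so levels of different genes need no length correction. A number prefix in the titles is shared within each day, so a batch behind that prefix and the day itself cannot be told apart. With 1 library per group, p-values measure the spread left between libraries after day and genotype, and fewer cells and less RNA per cell cannot be told apart within a sum.

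Microglia gained class I transcripts between day 0 and the EAE days. On day 13, 9 of the 10 genes rose relative to day 0, against 15.2% of the 10526 genes tested that were called higher. On day 21, 8 of the 10 were higher than on day 0, against 7.96% of all genes. These calls are from edgeR's quasi-likelihood test with genotype as covariate, 2 libraries per day and Benjamini-Hochberg adjustment over all genes at 0.05. The median log2 change of the 10 members was 2.60 on day 13 and 2.34 on day 21, beside -0.03 and -0.0042 for all genes tested. Both comparisons share the day 0 libraries. Microglia numbered 1235, 464 and 1741 cells in the KO libraries of days 0, 13 and 21, against 1369, 942 and 555 in the WT libraries.

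The classical heavy chains rose by several fold. H2-K1 had 479, 2625 and 1893 CPM in the KO libraries of days 0, 13 and 21, against 473, 2752 and 2588 CPM in the WT libraries. Its log2 fold change was 2.73 ± 0.20 (SE) on day 13 (edgeR, adjusted p = 2.15e-05) and 2.48 ± 0.20 on day 21 (adjusted p = 0.000121). H2-D1 had 946, 4197 and 3717 CPM in the KO libraries and 916, 4601 and 4742 CPM in the WT libraries. For both genes the EAE libraries did not overlap the day 0 libraries, and the KO library of day 21 was the lowest of the 4 EAE libraries. The change of H2-D1 was 2.47 ± 0.19 on day 13 (adjusted p = 2.89e-05) and 2.43 ± 0.19 on day 21 (adjusted p = 0.000121).

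The Qa-2 genes H2-Q6 and H2-Q7 were near zero in day 0 microglia and rose most. H2-Q7 had 11.9, 470 and 266 CPM in the KO libraries of days 0, 13 and 21, against 19.9, 471 and 514 CPM in the WT libraries. H2-Q6 had 6.99, 241 and 149 CPM in the KO libraries and 9.76, 215 and 234 CPM in the WT libraries. The day 0 values of H2-Q6 rest on 30 UMIs in KO and 46 in WT, those of H2-Q7 on 51 and 94. The change of H2-Q7 was 5.17 ± 0.28 on day 13 (edgeR, adjusted p = 5.42e-06) and 4.84 ± 0.27 on day 21 (adjusted p = 1.43e-05), and that of H2-Q6 was 5.01 ± 0.26 and 4.74 ± 0.26.

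The Qa-1 gene H2-T23 peaked on day 13 in both genotypes, as H2-K1 did. Among the heavy chains H2-T23 alone was called lower on day 21 than on day 13. It had 108, 298 and 124 CPM in the KO libraries of days 0, 13 and 21, against 95.3, 319 and 172 CPM in the WT libraries. It rose by 1.83 ± 0.19 on day 13 (edgeR, adjusted p = 0.000129) and stood 0.77 ± 0.19 above day 0 on day 21 (adjusted p = 0.0272). Between day 21 and day 13 it fell by 1.06 on the log2 scale (adjusted p = 0.046). The day 21 call was lost when either day 0 library was left out, with adjusted p = 0.0808 without KO day 0 and 0.54 without WT day 0, and the fall was lost without KO day 0, WT day 0 or KO day 13 (adjusted p = 0.0523 to 0.0721).

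B2m was the most abundant member in every microglial library. It had 3685, 8684 and 7973 CPM in the KO libraries of days 0, 13 and 21, against 3503, 9485 and 9473 CPM in the WT libraries. The light chain rose by 1.57 ± 0.18 on day 13 (edgeR, adjusted p = 0.000285) and by 1.53 ± 0.18 on day 21 (adjusted p = 0.000817), and the day 21 call was lost without the WT day 0 library (adjusted p = 0.0891).

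The transporter subunits moved apart. Tap1 had 45.7, 451 and 152 CPM in the KO libraries of days 0, 13 and 21, against 49.4, 417 and 232 CPM in the WT libraries. Tap2 had 117, 98.8 and 95.1 CPM in the KO libraries and 110, 114 and 87.7 CPM in the WT libraries, so its 6 values stayed within a narrow band. Tap1 rose by 3.43 ± 0.21 on day 13 (edgeR, adjusted p = 1.09e-05) and by 2.24 ± 0.21 on day 21 (adjusted p = 0.000305), and it fell by 1.19 between day 21 and day 13 (adjusted p = 0.0414). Tap2 differed by 0.14 ± 0.14 on day 13 (adjusted p = 0.496) and by -0.06 ± 0.14 on day 21 (adjusted p = 0.843). On day 13 microglia held 4.56 Tap1 UMIs per Tap2 UMI in the KO library and 3.65 in the WT library, against 0.389 in KO and 0.449 in WT on day 0. The fall of Tap1 was lost without KO day 0, WT day 0 or KO day 13 (adjusted p = 0.0523 to 0.0873).

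Tapasin and the transactivator were the remaining members. Tapbp had 251, 382 and 245 CPM in the KO libraries of days 0, 13 and 21, against 242, 398 and 278 CPM in the WT libraries. Its day 13 rise was 0.89 ± 0.15 (edgeR, adjusted p = 0.00219), lost without WT day 0 (adjusted p = 0.14), and its day 21 difference of 0.33 ± 0.15 did not pass (adjusted p = 0.189). Nlrc5 was scarce, with 11, 40 and 53 UMIs in the KO libraries and 5, 86 and 33 in the WT ones. This was 2.56, 25.2 and 9.62 CPM in the KO libraries and 1.06, 28.3 and 23 CPM in the WT libraries. Nlrc5 rose by 4.09 ± 0.46 on day 13 (adjusted p = 0.000228) and by 3.23 ± 0.49 on day 21 (adjusted p = 0.00261).

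**Figure D1:**
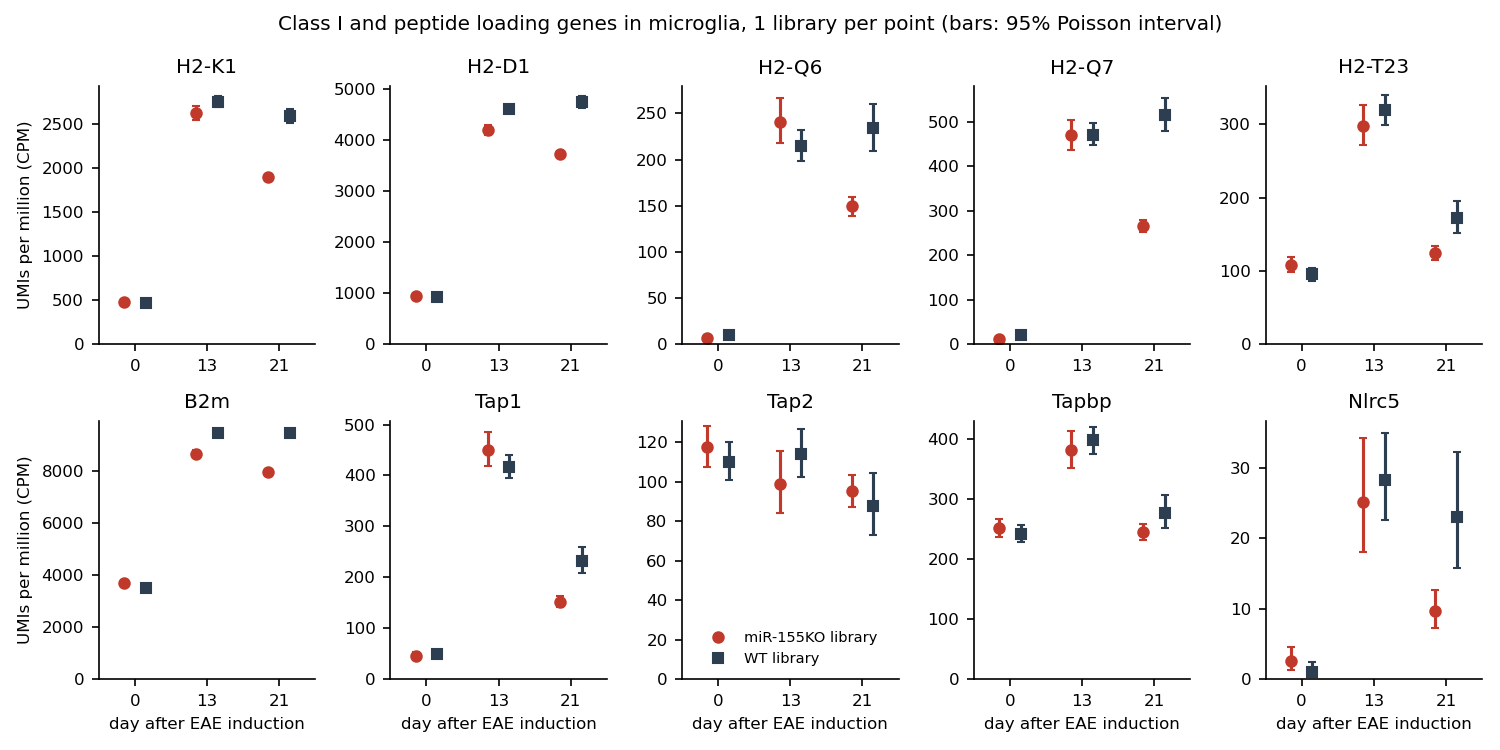
Levels of the 10 genes in microglia, in CPM (vertical axes, each from 0), by day after EAE induction, with 1 point per KO or WT library and 95% Poisson intervals. Mice of day 0 were unimmunized. In all panels except Tap2 both day 13 libraries lie above both day 0 libraries, and Tap2 stays between 87.7 and 117 CPM. The share of all genes that separate in this way was not counted. In the edgeR test 9 members were called higher on day 13, against 15.2% of 10526 genes.

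Between day 21 and day 13, Tap1 and H2-T23 were the 2 members called lower in microglia, against 0.428% of all genes, and 0 were called higher, against 0.0855%. At an unadjusted p of 0.05, 4 of the 10 passed in edgeR, against 1484 of 10526 genes. After adjustment DESeq2 also called 2. Leaving out the WT day 21 library raised the count to 7, and leaving out KO day 0, WT day 0 or KO day 13 brought it to 0. Transcripts of other cell types were measured in the same sums. Granule genes (Camp, Ngp, Ltf), which microglia do not make, summed to 90.9 to 287 CPM in microglia and to 81398 to 103068 CPM in neutrophils. The 10 T cell markers summed to 22.4, 57.3 and 44.8 CPM in the KO libraries of days 0, 13 and 21, against 47.7, 69.1 and 350 CPM in the WT libraries. The 10 microglial markers summed to 13024 to 24581 CPM in the 4 EAE libraries, against 36870 CPM in KO and 36416 CPM in WT on day 0. Their part in the class I values was not tested. The change of scaling from TMM to plain class totals moved the median of all genes by -0.23 on day 13 and by -0.25 on day 21. These shifts were well below the changes of H2-K1, H2-D1, H2-Q6 and H2-Q7. The smaller day 21 change of H2-T23 was closer to the shift in size.

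Per cell, the classical heavy chains were counted after each microglial cell was thinned to 1500 UMIs. The median cell had 2, 10 and 8 UMIs of H2-K1 and H2-D1 together in the KO libraries of days 0, 13 and 21, against 2, 11 and 11 in the WT libraries. Before thinning the medians were 4, 22 and 15 in the KO libraries and 4, 22 and 17 in the WT libraries. The 10th percentile of cells was 5.3 UMIs in KO cells and 6 in WT cells of day 13, and 3 in KO cells and 6 in WT cells of day 21. The 90th percentile was 15 in KO and 17 in WT on day 21, so the KO cells of that day reached further down, with a variance over mean of 2.59 in KO and 1.75 in WT. On day 21, 1 KO cell below 1500 UMIs was left out.

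Neutrophils and B cells gained class I transcripts on day 13, and T cells gained Tap1 and Tapbp. In neutrophils 7 of the 9 members tested were called higher on day 13 than on day 0, against 7.95% of 6676 genes, and 3 were on day 21, against 2.67%. In B cells 7 of 10 were called higher on day 13, against 9.83% of 5360 genes, and 0 lower, against 7.8%, and on day 21 3 were called higher, against 5.75%. In T cells 2 of 10 were called higher on day 13, against 7.92% of 7723 genes, and 0 lower, against 6.89%, and on day 21 Tap1 was called higher, against 3.82%, and H2-T23 lower, against 3.43%. Tap2 was called in none of these contrasts.

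Neutrophils started from low levels of most heavy chains. H2-Q7 had 3.18, 188 and 24.5 CPM in the KO neutrophils of days 0, 13 and 21, and 8.95, 207 and 125 CPM in the WT neutrophils. H2-K1 had 143, 897 and 301 CPM in the KO libraries and 214, 879 and 629 CPM in the WT libraries. Both genes peaked on day 13, in both genotypes. On day 13 H2-Q7 was higher than on day 0 by 4.84 ± 0.59 (edgeR, adjusted p = 7.32e-05), H2-K1 by 2.17 ± 0.22 (adjusted p = 1.54e-05), Tap1 by 2.16 ± 0.31 (adjusted p = 0.000317) and H2-D1 by 0.66 ± 0.12 (adjusted p = 0.00194). The day 0 value of H2-Q7 rests on 1 UMI in KO and 9 in WT. On day 21 against day 13, 5 of 9 members fell, against 2.53% of all genes, with Tap1 at -1.31 ± 0.22 (adjusted p = 0.00315) and H2-Q6 at -1.32 ± 0.23 (adjusted p = 0.00457). H2-T23 had 82.7, 57.6 and 48.6 CPM in the KO libraries and 54.7, 68.2 and 31.1 CPM in the WT libraries, and was not called on either day against day 0.

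The neutrophil classes differed in maturity between libraries. The granule genes Camp, Ngp and Ltf, made by immature neutrophils, summed to 86311, 81398 and 81583 CPM in the KO libraries of days 0, 13 and 21, against 103068, 87570 and 97153 CPM in the WT libraries. In neutrophils with at most 5% granule UMIs, a restriction chosen after the data were seen, which left 32 KO and 77 WT cells on day 0, 4 of the day 13 calls and 0 of the day 21 calls against day 0 were left, and 0 of the 5 falls. Leaving out the WT day 21 library also left 0 calls on day 21 against day 0, leaving out WT day 0 left 1, and leaving out KO day 13, KO day 21 or WT day 13 gave 5. Of the 5 falls against day 13, 3 were left without KO day 13 and 2 without KO day 21.

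B cells of day 0 were rich in precursors. The precursor genes Vpreb1, Igll1, Rag1, Dntt and Vpreb3 summed to 159 to 487 CPM in the 4 EAE libraries, against 1955 CPM in KO and 2802 CPM in WT on day 0. H2-Q7 had 227, 445 and 322 CPM in the KO B cells of days 0, 13 and 21, and 241, 481 and 432 CPM in the WT B cells. Tap1 had 88.9, 223 and 141 CPM in the KO libraries and 136, 304 and 168 CPM in the WT libraries. H2-D1 had 2858, 1971 and 2128 CPM in the KO libraries and 2472, 2208 and 1850 CPM in the WT libraries. H2-Q7 rose by 1.38 ± 0.22 on day 13 (edgeR, adjusted p = 4.69e-06), Tap1 by 1.60 ± 0.24 (adjusted p = 1.16e-06) and H2-K1 by 1.05 ± 0.19 (adjusted p = 3.06e-05), while H2-D1 differed by 0.04 ± 0.18 (adjusted p = 0.925). In B cells with no UMI of a precursor gene, also a restriction chosen after the data were seen, which left 23 KO and 31 WT cells on day 0, 3 members were called higher on day 13 and 1 on day 21. With class totals in place of TMM the counts were 4 and 1, and H2-D1 was then called lower on day 21, at -0.44. That change of scaling moved the median of all genes in B cells by -0.41 on day 13 and by -0.38 on day 21, so the sizes of these rises depend on it. Leaving out KO day 13 brought the day 13 count to 3, and leaving out KO day 0, WT day 0 or WT day 13 brought it to 4. The day 21 count was 0 without WT day 0 and 1 without KO day 0 or WT day 21.

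In T cells few members were called. H2-K1 had 1753, 2254 and 1986 CPM in the KO T cells of days 0, 13 and 21, and 1919, 2373 and 2311 CPM in the WT T cells. H2-Q7 had 505, 676 and 580 CPM in the KO libraries and 686, 741 and 670 CPM in the WT libraries. Tap1 had 85.9, 270 and 146 CPM in the KO libraries and 104, 289 and 186 CPM in the WT libraries. Tap1 rose by 1.36 ± 0.18 on day 13 (edgeR, adjusted p = 1.82e-05) and Tapbp by 0.51 ± 0.16 (adjusted p = 0.0394), while H2-K1 differed by 0.14 ± 0.11 (adjusted p = 0.452) and H2-D1 by -0.22 ± 0.11 (adjusted p = 0.2). H2-T23 fell by 0.79 on day 21 against day 0 (adjusted p = 0.0112), and Tap1 fell by 0.66 on day 21 against day 13 (adjusted p = 0.0163), the only member called, against 1.26% of all genes. The Tap1 call of day 21 against day 0 and the fall of H2-T23 were both lost without KO day 0, WT day 0 or WT day 21 (adjusted p = 0.194 to 0.401). The Tapbp call was lost without KO day 0, KO day 13 or WT day 0, and the fall of Tap1 without KO day 0, KO day 21 or WT day 0 (adjusted p = 0.102 to 0.396). The co-receptor genes Cd8a and Cd8b1 summed to 856, 216 and 315 CPM in the KO T cells and 1081, 699 and 802 CPM in the WT T cells, so the makeup of the class moved with day and genotype.

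**Figure D2:**
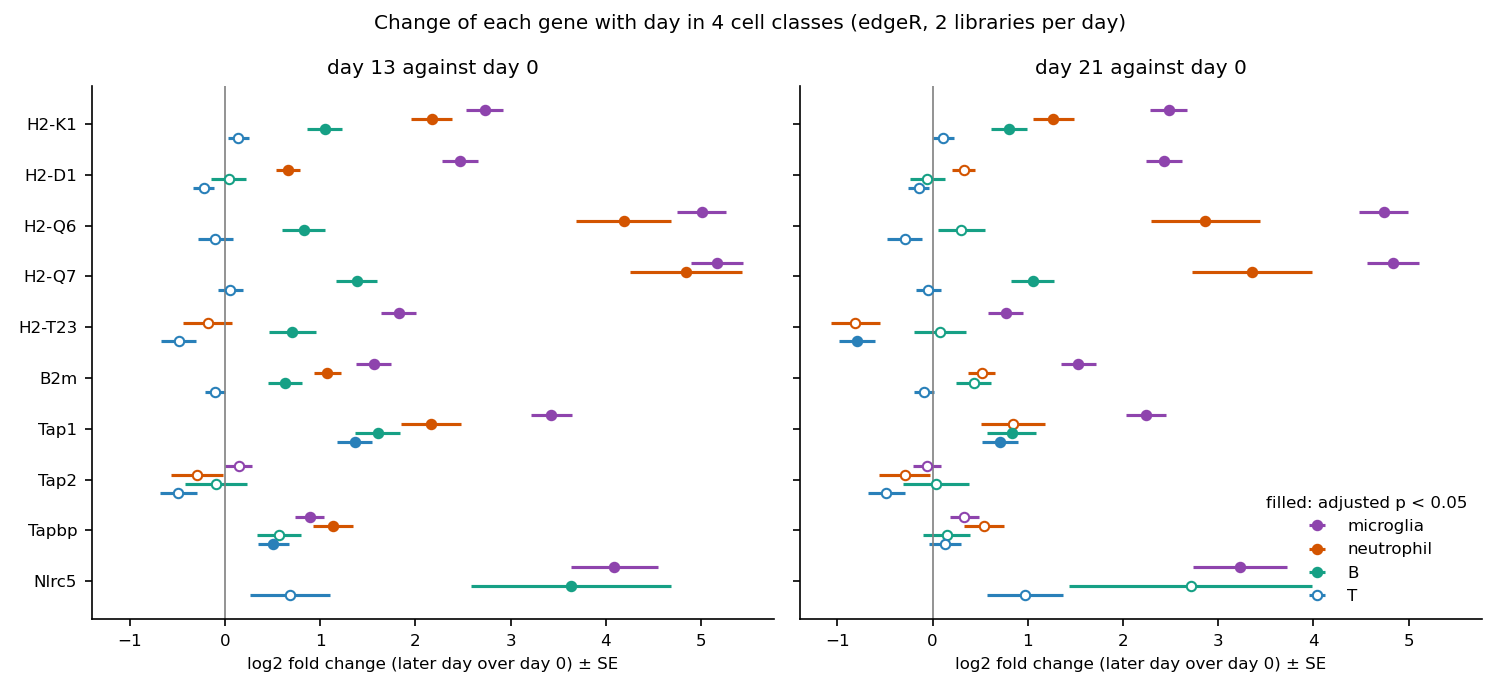
Log2 fold change of each gene on day 13 (left) and day 21 (right) over day 0, with its standard error (horizontal axis), in 4 cell classes, with filled points where the edgeR adjusted p is below 0.05. Microglia lie furthest to the right for H2-K1, H2-D1, H2-T23, B2m and Tap1 on both days, and Tap2 lies between -0.49 and 0.14 in all 4 classes.

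The gain of most members was smaller in T and B cells than in microglia when the classes were compared directly, and that of 2 members was smaller in neutrophils. The change from day 0 to the mean of days 13 and 21 was set against that of microglia in 1 model, a test added after the data were seen. In T cells 8 of 10 members had a lower change than in microglia, against 3.68% of 10325 genes called lower, in B cells 6 of 10, against 4.38%, and in neutrophils 2 of 10, against 1.82%. None was called higher in any of the 3 classes, where 1.72%, 2.04% and 2.2% of all genes were. H2-D1 was the member called in all 3 classes, with differences of -2.52 ± 0.21 in T cells (edgeR, adjusted p = 1.87e-09), -2.40 ± 0.21 in B cells (adjusted p = 8.24e-09) and -1.66 ± 0.21 in neutrophils (adjusted p = 5.18e-06). H2-Q7 differed by -4.83 ± 0.40 in T cells (adjusted p = 1.87e-09), -3.68 ± 0.45 in B cells (adjusted p = 2.05e-06) and -0.74 ± 0.84 in neutrophils (adjusted p = 0.711). Tap2 and Tapbp were called in none of the 3 classes. Leaving out WT day 0 took the calls of B2m and Tap1 in B cells and of Nlrc5 in T cells, and leaving out either day 0 library took that of H2-T23 in neutrophils.

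The order of the classes by summed level changed with disease. On days 13 and 21 microglia held the highest sums of the 10 members, 14625 to 18800 CPM over 4 libraries. Only their lowest library, KO day 21, overlapped another class, the plasmacytoid dendritic cells of day 13 with 13076 CPM in KO and 14717 CPM in WT. The conventional dendritic cells of KO day 13 had 14337 CPM and the NK cells of WT day 21 had 10256 CPM. T cells (10746 to 12201 CPM) and monocytes/macrophages (8580 to 13558 CPM) overlapped, as did monocytes/macrophages and B cells (7734 to 9258 CPM). Neutrophils were lowest, at 3430 to 6556 CPM, and did not overlap the others. On day 0 the order was another. NK cells of the WT library had 13908 CPM, followed by T cells with 9936 CPM in KO and 11372 CPM in WT, and by WT monocytes/macrophages with 8693 CPM. B cells had 7864 CPM in KO and 7688 CPM in WT. Below them stood microglia, with 5653 CPM in the KO library and 5421 CPM in the WT library, and neutrophils, with 2741 CPM in KO and 2793 CPM in WT.

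**Figure D3:**
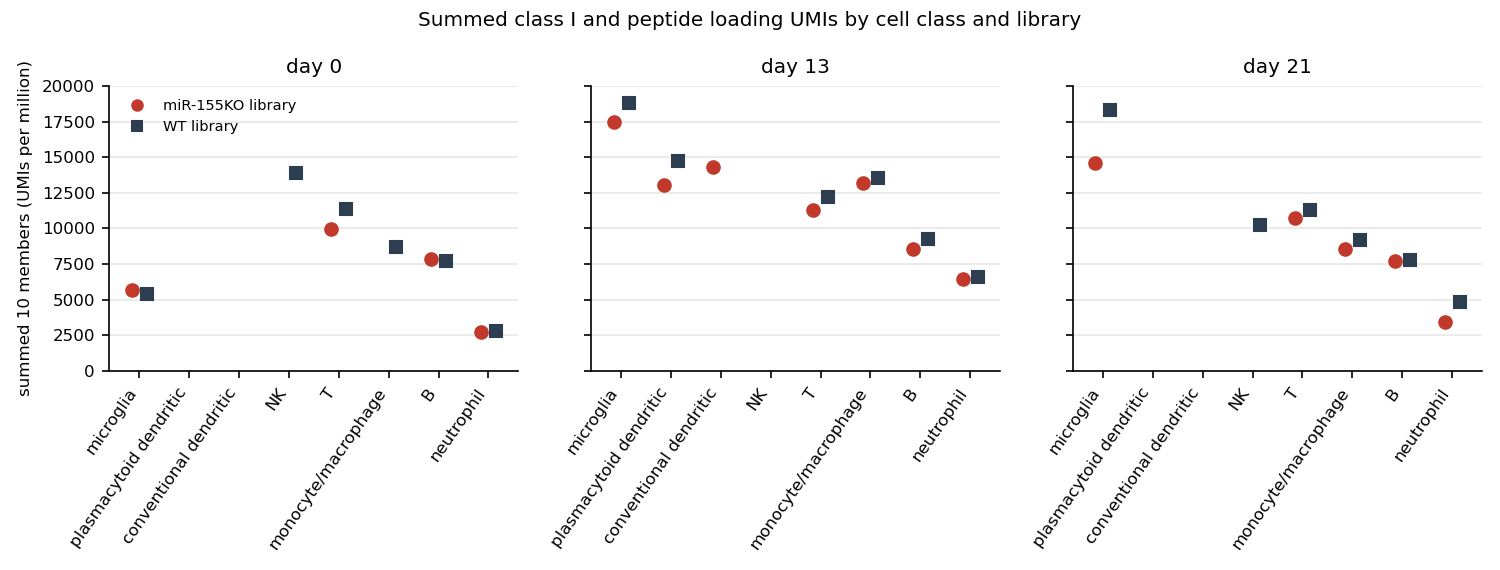
Sum of the 10 genes in CPM (vertical axis, from 0) by cell class, for days 0, 13 and 21, with 1 point per KO or WT library of at least 50 cells of the class. Microglia hold the highest sums on days 13 and 21, 14625 to 18800 CPM, against 5653 CPM in KO and 5421 CPM in WT on day 0.

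Over the 4 EAE libraries, microglia were set against the other classes in a model with library as block. Of the 10 members, 10 were lower in neutrophils, against 40.1% of 10002 genes called lower, 7 in B cells, against 29.5%, 6 in T cells, against 33.4%, and 6 in monocytes/macrophages, against 31.7%. None was higher, where 31.6%, 22.7%, 28.2% and 26.8% of all genes were. B2m was lower in each class, by 1.24 in B cells, 0.97 in T cells, 0.83 in neutrophils and 0.53 in monocytes/macrophages on the log2 scale (edgeR, adjusted p = 0.000712 or less). H2-Q6 stood at -2.06 ± 0.29 in monocytes/macrophages (adjusted p = 1.42e-06), at -1.54 ± 0.29 in neutrophils (adjusted p = 4.51e-05) and at 0.05 ± 0.27 in B cells (adjusted p = 0.897). Nlrc5 differed by 0.37 ± 0.22 in T cells (adjusted p = 0.151) and Tapbp by 0.24 ± 0.11 in monocytes/macrophages (adjusted p = 0.0619), so neither passed. Without the WT day 21 library 3 members were called lower in monocytes/macrophages. The neutrophil differences depend on scaling, since class totals in place of TMM moved the median of all genes there by -1.03. In CPM, B2m was lowest in neutrophils, with a mean of 2522 CPM over the 4 EAE libraries. The means were 3439 CPM in B cells, 4848 CPM in T cells and 5662 CPM in monocytes/macrophages, so the order of the B2m differences depends on scaling too.

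Monocytes/macrophages were tested between days 21 and 13 only. On day 21 H2-Q7 had 59.2 CPM in KO and 109 CPM in WT, against 319 CPM in KO and 313 CPM in WT on day 13. On day 21 H2-Q6 had 9.87 CPM in KO and 20.8 CPM in WT, against 84.9 CPM in KO and 71.6 CPM in WT on day 13. Both fell, H2-Q7 by 1.96 (edgeR, adjusted p = 0.0408) and H2-Q6 by 2.25 (adjusted p = 0.0468), against 0.369% of 8398 genes called lower. The other 8 members had lower estimates that did not pass. Of the 10, 9 were below an unadjusted p of 0.05, against 1095 of 8398 genes, and DESeq2 called 3 after adjustment. The WT day 0 library, with 66 cells and no KO partner of 50 cells, had 19.4 CPM of H2-Q7, from 8 UMIs, and 1 UMI of H2-Q6. Neither call held when 1 more marker was required of a cell (adjusted p = 0.104 for both).

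Classical and nonclassical heavy chains were weighed against each other as the share of H2-Q6, H2-Q7 and H2-T23 among all heavy chain UMIs. In microglia the share was 8.19%, 12.9% and 8.76% in the KO libraries of days 0, 13 and 21, against 8.25%, 12% and 11.2% in the WT libraries. The mean of the 4 EAE libraries was 11.2% ± 1.77 (SD, n = 4), against 8.22% over the 2 day 0 libraries. The difference was 2.98 percentage points, with p = 0.133 in a two-sided exact permutation test. With 4 against 2 libraries this test cannot give a p below 0.133, even for full separation. It therefore cannot decide whether the share changed. B cells had 16.6% ± 1.73 (SD, n = 4) against 12% (exact permutation p = 0.133), T cells 15.5% ± 0.989 against 16.1% (exact permutation p = 0.533) and neutrophils 8.33% ± 2.57 against 5.81% (exact permutation p = 0.4). In microglia and B cells all 4 EAE libraries lay above both day 0 libraries, while T cells and neutrophils overlapped.

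The makeup of that share turned over in microglia. On day 21 H2-T23 made up 2.01% of all heavy chain UMIs of KO and 2.08% of those of WT, against 6.97% in KO and 6.29% in WT on day 0. H2-Q7 made up 4.32% in KO and 6.23% in WT on day 21, against 0.766% in KO and 1.32% in WT on day 0. The share of H2-T23 alone was thus lower in EAE microglia than on day 0, while T and B cells held more H2-Q7 than H2-T23 in all 6 libraries. Plasmacytoid dendritic cells of day 13 had the highest share, 20.3% in KO and 20.4% in WT, and more H2-Q7 than any other class, with 1000 CPM in KO and 1125 CPM in WT.

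**Figure D4:**
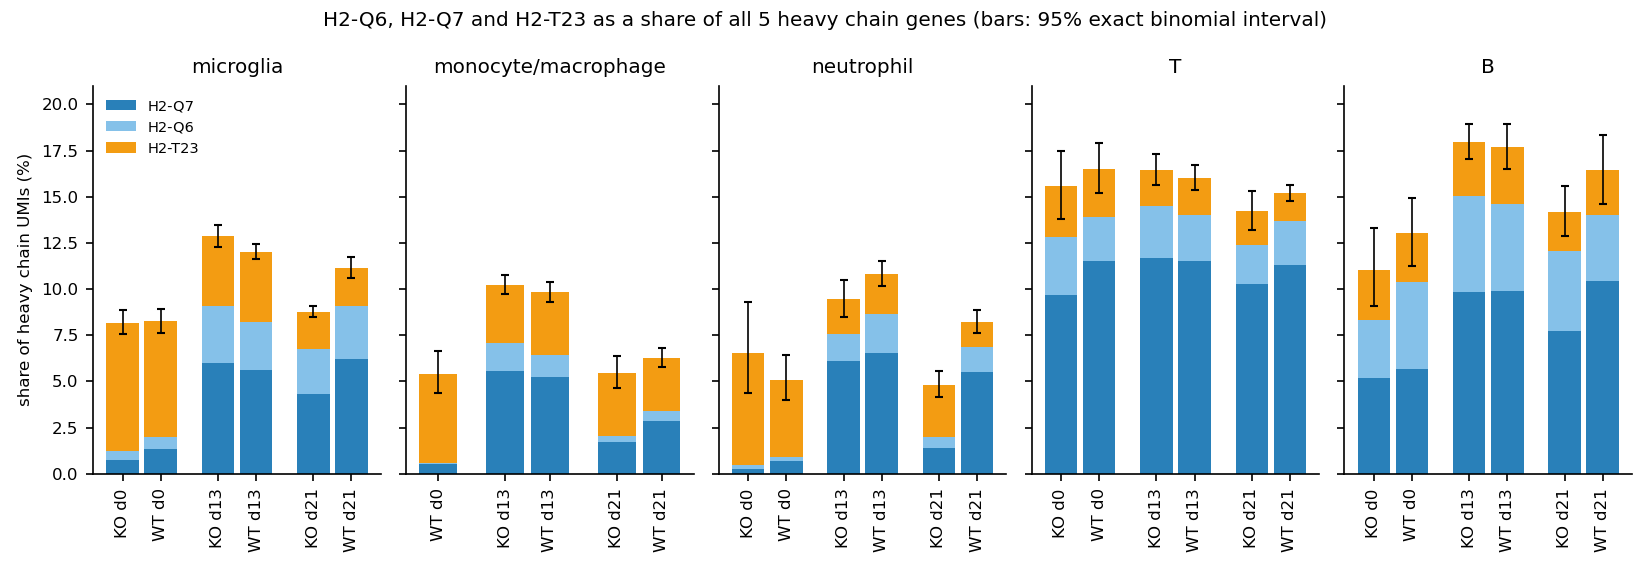
Share of H2-Q6, H2-Q7 and H2-T23 among the UMIs of all 5 heavy chain genes (vertical axis, in percent), stacked by gene, for each KO and WT library (d: day) in 5 cell classes, with 95% exact binomial intervals of the summed share. H2-T23 makes up most of the share in day 0 microglia and neutrophils, and H2-Q7 in T cells of all days.

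KO and WT cells were compared within each day without replicates, and over days with day as a block. Over days, 0 of the 10 members were called in microglia, T cells, B cells or monocytes/macrophages and 0 of 9 in neutrophils. Of all genes, 0.0095% were called higher and 0% lower in microglia, 0.388% and 0.207% in T cells, 0.056% and 0.0373% in B cells, 0.165% and 0.0599% in neutrophils, and 0% each way in monocytes/macrophages. At an unadjusted p of 0.05, edgeR passed 4 of 9 members in neutrophils, against 705 of 6676 genes. In microglia 1 of 10 passed, against 320 of 10526 genes, and in B cells 1 of 10, against 250 of 5360. In T cells 0 passed, against 494 of 7723 genes, and in monocytes/macrophages 0, against 200 of 8398. After adjustment DESeq2 called 0 members in each class. In microglia the estimates ran from -0.58 ± 0.20 for H2-Q7 to -0.03 ± 0.12 for Tap2, all below 0. In neutrophils H2-Q7 stood at -0.93 ± 0.32 (edgeR, adjusted p = 0.284) and H2-Q6 at -0.80 ± 0.24 (adjusted p = 0.216), which are fits over days whose KO-WT differences were unlike.

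On day 21 KO microglia held less of 9 of the 10 members than WT microglia, with all 9 counting intervals below 1. The shares of all genes that were lower in KO, or had such an interval, were not counted. Of the 10 members, 4 were 1.5-fold or more lower in KO, against 5.88% of 7579 genes measured, and 0 were 1.5-fold or more higher, against 8.88%. The 4 were Nlrc5, H2-Q7, H2-Q6 and Tap1. H2-Q7 had 266 CPM in KO and 514 CPM in WT, a ratio of 0.517 (95% interval 0.473 to 0.565). H2-K1 had a ratio of 0.732 (0.705 to 0.760), H2-D1 of 0.784 (0.763 to 0.806) and B2m of 0.842 (0.826 to 0.858), while Tap2 had 1.09 (0.892 to 1.33). The intervals cover counting error only, and each ratio sets 1 library against 1 library. The median log2 ratio of the members was -0.46, beside 0.07 for all genes measured. The microglial markers of that day had a sum of 24581 CPM in the KO library and 16543 CPM in the WT library, and T cell markers one of 44.8 CPM in KO and 350 CPM in WT, and the part of either in the class I values was not tested.

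On day 13, 8 of the 10 members were lower in KO microglia, 3 of them with counting intervals below 1. The shares of all genes were not counted for these either. The median log2 ratio of the members was -0.08, beside 0.01 for all genes measured. Of the 10 members, 0 were 1.5-fold or more apart, against 3.75% of 7568 genes lower and 4.70% higher in KO. The sum of the 10 had a ratio of 0.929 (95% interval 0.916 to 0.943). On day 0, 1 of the 8 members with 10 CPM or more was 1.5-fold or more lower in KO, against 0.641% of 7801 genes, and 0 were higher, against 1.88%. That gene was H2-Q7, at 11.9 CPM in KO and 19.9 CPM in WT. For the sum of the 10, the ratio was 1.04 (1.02 to 1.06) on day 0, beside 0.797 (0.786 to 0.808) on day 21. With mixed cells kept, which brought the WT day 21 microglia to 1107 cells, the log2 difference of the sum was -0.10 on day 21 and -0.16 on day 13, beside -0.33 and -0.11 without them, so the larger difference of day 21 depends on leaving those cells out.

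Neutrophils of day 21 also differed between genotypes. Of 9 members measured, 5 were 1.5-fold or more lower in KO, against 16.2% of 5080 genes, and H2-T23 was higher, against 3.44%. H2-Q7 had 24.5 CPM in KO and 125 CPM in WT, a ratio of 0.197 (95% interval 0.146 to 0.261, from 55 KO and 421 WT UMIs). H2-K1 had a ratio of 0.479 (0.438 to 0.522), Tap1 of 0.504 (0.374 to 0.673) and B2m of 0.654 (0.628 to 0.681), while H2-D1 had 0.925 (0.883 to 0.968) and H2-T23 had 1.56 (1.18 to 2.06). Retnlg and Cxcr2, genes of late neutrophils, together had 20084 CPM in the KO library and 14190 CPM in the WT library, and the granule genes 81583 CPM in KO and 97153 CPM in WT, and their part was not tested. The median log2 ratio of the members was -0.61, beside -0.18 for all genes measured. The sum of the 10 members differed by -0.50 on the log2 scale in all neutrophils, by -0.61 in those with at most 5% granule UMIs and by -0.32 with TMM scaling. On day 13, 0 of 9 members were 1.5-fold or more apart, against 11.3% lower and 3.72% higher.

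In monocytes/macrophages of day 21, 3 of 10 members were 1.5-fold or more lower in KO, against 10.3% of 6866 genes, and 0 were higher, against 12.4%. They were H2-Q6, H2-Q7 and Tap1. Tap1 had 153 CPM in KO and 251 CPM in WT, a ratio of 0.610 (95% interval 0.499 to 0.742). B2m there had a ratio of 0.990 (0.954 to 1.03). On day 13, 0 members were apart, against 4.40% lower and 3.54% higher. In T cells 0 members were 1.5-fold or more apart on days 13 and 21, where 8.05% and 7.90% of all genes were lower and 6.83% and 8.53% higher, and on day 0 Nlrc5 was lower, from 3 KO and 9 WT UMIs, against 18.9% of all genes lower and 18.6% higher. In B cells Nlrc5 was lower in KO on day 21, with 2 KO UMIs and 8 WT UMIs, against 14.6% of all genes lower and 21.9% higher. On day 13, 0 members were apart in B cells, against 10.2% lower and 6.95% higher. On day 0 Tap1 was lower in KO B cells, from 18 KO and 43 WT UMIs, and Tapbp higher, from 49 and 48, against 25.4% and 21.9% of all genes. In neutrophils of day 0, 0 of 7 members measured were lower, against 24%, and H2-T23 was higher, from 26 KO and 55 WT UMIs, against 13.9%. Plasmacytoid dendritic cells of day 13 had 1 member 1.5-fold or more lower in KO, against 15.1% of 7365 genes, and 0 higher, against 14.4%. The gene was H2-Q6, at 72.8 CPM in KO and 160 CPM in WT.

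**Figure D5:**
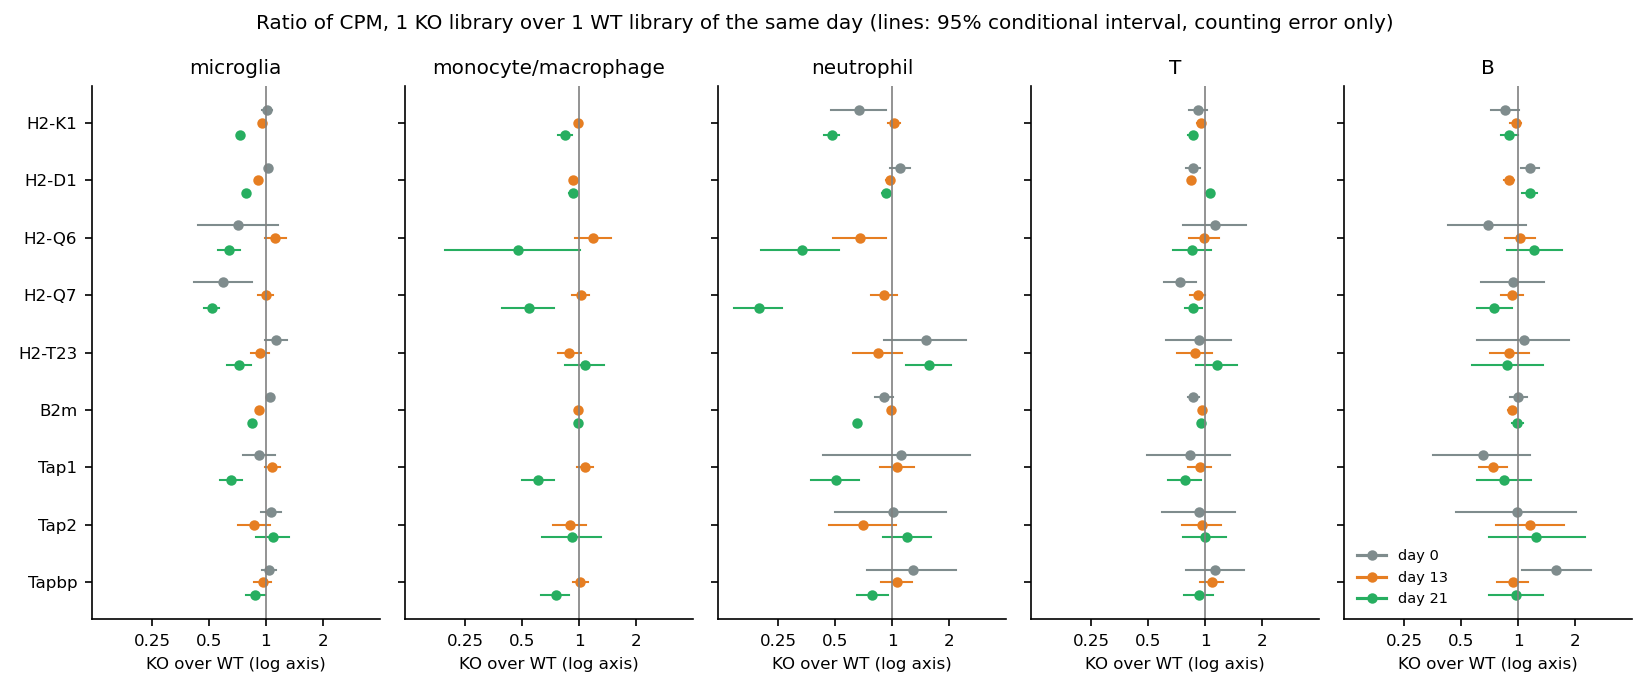
Ratio of CPM in the KO library over the WT library of the same day (horizontal log axis) for 9 genes in 5 cell classes, coloured by day, with 95% conditional intervals that cover counting error only. Nlrc5 and values from fewer than 30 UMIs are left out, and the day 21 points of H2-K1, H2-Q6, H2-Q7 and Tap1 lie to the left of 1 in microglia, monocytes/macrophages and neutrophils.

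Other genes of the pathway followed the members in part. Of the 5 immunoproteasome genes, whose products cut proteins into class I peptides under interferon, 5 rose in microglia on day 13, against 15.2% of all genes, and 4 on day 21 against day 0, against 7.96%, with a median log2 change of 1.77 on day 13, beside -0.03 over all genes tested. The proteasome activator Psme1 was the highest, at 2.18 ± 0.20 (edgeR, adjusted p = 8.11e-05), and Psmb8, a catalytic subunit, rose by 1.90 ± 0.22 (adjusted p = 0.000275). In neutrophils and B cells 5 of 5 rose on day 13, against 7.95% and 9.83% of all genes, and 3 of 5 in T cells, against 7.92%. Of 13 further class I genes, 11 were in the files and 7 were tested in microglia. On day 13, 5 of these rose, against 15.2% of all genes, and 1 fell, against 12.6%. That was Cd1d1, which presents lipids, at -1.56 (adjusted p = 0.00729). H2-Q4 rose by 2.5 ± 0.18 (adjusted p = 2.13e-05) and H2-T22, a gene of the H2-T region, by 2.44 ± 0.26 (adjusted p = 0.000166).

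Loading partners of the endoplasmic reticulum moved less. Of 7 tested in microglia on day 13, 3 rose, against 15.2% of all genes, and 1 fell, against 12.6%, with a median log2 change of 0.31, so the fall was near the share of all genes. The peptide editor Tapbpl rose by 1.28 ± 0.15 (edgeR, adjusted p = 0.000313) and the trimming peptidase Erap1 by 0.89 ± 0.17 (adjusted p = 0.00381), while the lectin chaperone Canx fell by 0.51 (adjusted p = 0.0358). Sec61b, a subunit of the protein channel of the endoplasmic reticulum, rose by 0.86 ± 0.16 (adjusted p = 0.00405). Of 15 transcription regulators tested there, 4 rose, against 15.2% of all genes, and 2 fell, against 12.6%, on day 13, with a median log2 change of -0.09, so the falls were near the share of all genes. Stat2 rose by 3.39 ± 0.21 (edgeR, adjusted p = 1.09e-05) and Irf1 by 2.15 ± 0.21 (adjusted p = 9.57e-05), while Nfya, a subunit of the factor that binds CCAAT, fell by 0.96 (adjusted p = 0.00385). Stat2 and Irf1 were also called lower on day 21 against day 13, by 1.36 (adjusted p = 0.0306) and 1.21 (adjusted p = 0.0438), as were Tap1 and H2-T23 among the members.

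The list of class I receptors and their relatives differed between classes. In microglia 2 of 6 rose on day 13, against 15.2% of all genes, and 1 fell, against 12.6%. Those that rose were the inhibitory receptors Lilrb4a, by 3.18 ± 0.27 (edgeR, adjusted p = 5.23e-05) and Pirb, by 1.99 ± 0.20 (adjusted p = 0.000134). In T cells 5 of 8 receptor genes fell on day 13, against 6.89% of all genes, among them Cd8b1 by 1.47 (adjusted p = 5.73e-05) and Cd8a by 1.29 (adjusted p = 9.91e-05), and 2 rose, against 7.92%, Pirb by 2.09 ± 0.56 (adjusted p = 0.0144) and Lilrb4a by 1.55 ± 0.38 (adjusted p = 0.00755). Monocyte/macrophage markers summed to 632, 956 and 685 CPM in the KO T cells of days 0, 13 and 21, and 824, 1208 and 1098 CPM in the WT T cells, and their part was not tested. Over days, Cd8a and Cd8b1 were lower in KO T cells, by 1.09 (adjusted p = 0.000996) and 1.13 (adjusted p = 0.00184).

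Across the 34 sums of a library and class with at least 50 cells, the gene outside the members whose level followed their summed level most closely was Psme1, with a Pearson r of 0.870 over log2(CPM + 1). It was followed by Tapbpl (0.868), Pla2g16 (0.859), Qars (0.858) and Ifi35 (0.856), out of 7309 genes with a mean of 10 CPM or more. The sums share libraries, so these values describe the likeness and are not tested. Among the members, H2-K1 followed the sum of the other 9 most closely (0.908) and Tap2 least (0.620).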

How the data were processed

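The 6 libraries are droplet single-cell RNA libraries of live CD45-positive cells from 5 mice each. The authors deposited raw UMI counts per gene and cell, made with Cell Ranger 2.0.2 on mm10, per the submitters' processing notes. How multi-mapping reads, introns and strand were counted is not given in the sources used here.

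Cells with at most 10% mitochondrial UMIs and at least 200 genes were kept. A cell was put in a class when at least 3 of that class's markers were detected, and at least 2 times as many as of the next class. Cells that failed the second rule were called mixed and left out, which also stood in for a doublet caller, and none was run. Classes of at least 50 cells in a library were used, and of at least 20 in the restricted fits on precursor, granule or Cd8 UMIs. The members, gene lists, markers and gate were chosen with earlier results of these data known, so no list counts as independent evidence. All 10 members are named. Of each list at most 4 genes are named, those with the largest change among the called, except 1 that is not reported here, and outside the lists the 5 genes most alike in level.

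Counts summed per library and class were tested with edgeR 4.0.16 (R 4.3.3, quasi-likelihood, TMM, filterByExpr), with genotype and day as terms, and p-values were adjusted over all genes tested by Benjamini-Hochberg at 0.05. DESeq2 1.42.0 was an alternative. A monocyte/macrophage fit used the 4 libraries of days 13 and 21. Within a day, KO and WT have 1 library each and no test. A gene was counted as apart at 1.5-fold or more with at least 10 CPM in either library. The intervals at 95% (exact Poisson, conditional binomial or Clopper-Pearson) cover counting error only. The edgeR step was tested on simulated data. For day 13 against day 0 in microglia it recovered 82 of 100 genes changed by 1 on the log2 scale and 100 of 100 changed by 2. There were 5 false calls over 10322 genes. For genotype over days it recovered 98 of 100 and 100 of 100, with 9 false calls over 10305 genes. The simulation gave every gene the same spread, unlike the data, so recovery of real changes could be lower. Alternatives were other scalings, no filter on low counts, stricter or looser gates, 5% mitochondrial UMIs, restricted cells and each library left out.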

Additional observations from a re-analysis of the deposited data

Results flagged for a closer look

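The change from day 0 to the mean of days 13 and 21 differed between microglia and other classes for 16 pairs of member and class, in an edgeR interaction test added after the data were seen. All were lower than in microglia. In T cells minus microglia the log2 differences were -4.96 for H2-Q6, -4.83 for H2-Q7, -2.87 for Nlrc5, -2.52 for H2-D1, -2.35 for H2-K1, -1.86 for H2-T23, -1.70 for Tap1 and -1.53 for B2m. In B cells minus microglia they were -4.18 for H2-Q6, -3.68 for H2-Q7, -2.40 for H2-D1, -1.60 for H2-K1, -1.59 for Tap1 and -0.95 for B2m. In neutrophils minus microglia they were -1.66 for H2-D1 and -1.53 for H2-T23. Without the WT day 0 library the calls of B2m and Tap1 in B cells, of Nlrc5 in T cells and of H2-T23 in neutrophils were lost.

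Ratios of KO over WT lay on opposite sides of 1 on different days for 3 pairs, with counting intervals that left out 1. The share of all genes that met this rule was not counted, and intervals of abundant genes leave out 1 at small differences. The difference between days was not tested, since each ratio sets 1 library against 1. H2-D1 in B cells had 1.16 on day 0, 0.893 on day 13 and 1.15 on day 21. H2-D1 in T cells had 0.864 on day 0, 0.847 on day 13 and 1.06 on day 21. B2m in microglia had 1.05 on day 0, 0.916 on day 13 and 0.842 on day 21. No group held 4 or more libraries, so single outlying libraries could not be looked for.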

How the results depend on the processing

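No paired analysis was possible because each group held 1 library, other than the KO and WT fit over days, where day as a block already pairs the libraries. No called change turned its sign under any alternative. In microglia the day 13 calls of B2m, H2-D1, H2-K1, H2-Q6, H2-Q7, H2-T23, Nlrc5 and Tap1 held in all the other fits run. Counts of called members moved as follows, where the settings on precursor, Cd8 and granule UMIs, the interaction and the class totals against microglia were chosen after the data were seen. With DESeq2, 4 members were higher on day 13 than on day 0 in B cells and 1 in T cells, on day 21 against day 0 T cells had 0 higher and 0 lower, and on day 21 against day 13 T cells had 0 lower and neutrophils 2. With class totals, B cells had 4 higher on day 13 and 1 higher and 1 lower on day 21, neutrophils had 8 lower on day 21 against day 13, and 1 was higher in T cells than in microglia. With RLE factors the neutrophil interaction gave 5, and monocytes/macrophages had 1 lower. Without precursor UMIs, B cells had 3 higher on day 13, 1 on day 21, and 1 lower on day 21 against day 13. Without Cd8 UMIs, which left 48 KO and 67 WT cells on day 0, T cells had 1 on day 13 and 0 on day 21. With at most 5% granule UMIs, neutrophils had 4 on day 13, 0 on day 21, and 0 lower on day 21 against day 13. With mixed cells kept, neutrophils had 1 on day 21, and on day 21 against day 13 microglia and neutrophils had 0 lower. With at most 5% mitochondrial UMIs, microglia had 1 lower and monocytes/macrophages 0, and with 1 more marker monocytes/macrophages had 0. With no filter, microglia had 4 lower, monocytes/macrophages 9 and B cells 1 on day 21 against day 13, and over days 1 was lower in KO in microglia and 1 in neutrophils.

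The log2 ratio of KO over WT of the summed members moved with mixed cells kept to 0.031, -0.16 and -0.10 in microglia of days 0, 13 and 21, to -0.074 in T cells of day 13, to -0.15 and 0.15 in neutrophils of days 0 and 13 (main values -0.027 and -0.029, so day 13 turned its sign, as it did with TMM scaling and with at most 5% granule UMIs), to -0.15 in monocytes/macrophages of day 21 and to -0.23 in plasmacytoid dendritic cells of day 13. With TMM scaling it was -0.13 and -0.37 in microglia, 0.082 and -0.32 in neutrophils and -0.0077 and -0.19 in monocytes/macrophages of days 13 and 21, and -0.067 in T and -0.048 in B cells of day 13. Without Cd8 UMIs it was -0.049 and -0.0057 in T cells of days 13 and 21. With at most 5% granule UMIs it was -0.31, 0.048 and -0.61 in neutrophils of days 0, 13 and 21.

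Leaving out 1 library at a time gave these ranges. On day 13 against day 0, microglia had 8 to 9 members higher, neutrophils 5 to 7, B cells 3 to 7 and T cells 1 to 2. On day 21 against day 0, microglia had 6 to 9 higher, neutrophils 0 to 5 higher and 0 to 1 lower, B cells 0 to 3 higher, and T cells 0 to 1 higher and 0 to 1 lower. On day 21 against day 13, microglia had 0 to 7 lower, neutrophils 2 to 6, B cells 0 to 1 and T cells 0 to 1. The interaction gave 4 to 7 in B cells, 7 to 8 in T cells and 1 to 3 in neutrophils. Against microglia, 5 to 7 were lower in B cells, 5 to 6 lower and 0 to 1 higher in T cells, 3 to 6 lower and 0 to 1 higher in monocytes/macrophages, and 7 to 10 lower in neutrophils. Over days, microglia had 0 to 1 member lower in KO, which was H2-Q7 without KO day 13 (-0.94, edgeR adjusted p = 0.0273), and neutrophils 0 to 3 lower and 0 to 1 higher. In neutrophils H2-K1, H2-Q6 and H2-Q7 were lower and H2-T23 higher without KO day 13 or WT day 13, which leaves days 0 and 21. For the fits without a library, the shares of all genes called are not given here, so these counts have no background beside them. Monocyte/macrophage fits without a library had no residual degrees of freedom and were not run. For changes not explained by fewer samples or genes, the cause was not tested.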
